A study of Mus musculus with 37 samples.

Results

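Left ventricular RNA of mice 7 days after cardiac arrest and resuscitation was compared with that of mice given adrenaline without an arrest. The comparison takes 8 of the 37 libraries of the study. They are the 4 labelled cardiac arrest at 7 days (Arrest) and the 4 labelled sham at 7 days (Adr). Libraries were taken by their labels, and the comparison itself was chosen with earlier results of these data known. All mice were C57BL/6J, male and female, and 8 to 10 weeks old when the study began. Both groups were anesthetized, intubated and ventilated and had a needle injection into the left ventricle, saline in Adr and potassium chloride in Arrest. Adrenaline at 15 µg/mL followed after 8 min in both, and only Arrest mice had asystole and chest compressions. The Adr group therefore controls for anesthesia, needle injection and adrenaline, but not for potassium chloride or chest compressions. The 7-day Arrest libraries come from mice that survived the arrest. Both groups carry the procedure and the drug, so 5 Naïve libraries, from mice with neither, are given beside them as a level without either. Naïve mice were anesthetized and were euthanized after baseline imaging, so their libraries are not matched to 7 days of recovery. Levels are in FPKM, which divides the fragments of a gene by its length and by the fragments of the library. A difference is the Arrest mean minus the Adr mean of log2(FPKM + 1), so differences of low genes are understated.

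The question of the comparison is how hearts after arrest and resuscitation differ from hearts given adrenaline alone, at the end of the week that was sampled. After an ischemic insult, circulating neutrophils and monocytes enter the myocardium first, resident macrophages clear debris and refill their niche, and fibroblasts then lay down collagen. The heart muscle cells meanwhile draw on stress programmes, such as natriuretic peptides and fetal myosin, that a resolved injury leaves again. Bulk tissue RNA carries all these cells at once, so fewer cells of a type and less RNA per cell cannot be told apart.

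The tissue label was checked against marker genes. All 14 cardiomyocyte markers were measured in every library, with cardiac troponin T (Tnnt2) at 484 to 705 FPKM, and the skeletal muscle myosin Myh4 was at 0 in all 8. Counted fragments lay between 13.7 and 15.4 M per library, except for 28.5 M in Arrest replicate 4. By Xist and Ddx3y, 2 of 4 Adr and 3 of 4 Arrest libraries were female. The 13 protein genes of the mitochondrial genome took 19.5% to 24.8% of fragments in Adr and 20.7% to 28.3% in Arrest (exact two-sided permutation p = 0.486, 0.771 adjusted over 5 library measures). The number of genes above 0 had the lowest of these p-values, with 16300 to 17600 genes in Adr and 17252 to 21269 in Arrest (exact permutation p = 0.0857, adjusted 0.429). With 4 against 4 no exact p can be below 0.0286. Markers of neighbouring tissue varied between libraries. Atrial myosin light chain Myl7 stood at 24.7, 5.69, 99 and 120 FPKM in Adr replicates 1 to 4 and at 2.25, 157, 0.751 and 6.14 FPKM in Arrest. Arrest replicate 2 also had the most of the fat cell gene Cfd, 64.4 FPKM against 0.717 to 25 FPKM in the other 7 libraries. Arrest replicate 1 was the 1 library of the 8 with the airway secretoglobin Scgb1a1, at 65.5 FPKM (423 fragments). The part of these markers in the results was not tested.

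No single gene passed the test. The 13154 genes tested reached 0.5 FPKM in 4 or more of the 8 libraries. Of these, 0 passed an adjusted p of 0.05 (0.0%, limma, Benjamini-Hochberg adjustment), and the lowest adjusted p was 0.51. At an unadjusted p of at most 0.05 stood 742 genes (5.64%), where 657.7 would be expected if no gene differed, with 378 of them higher in Arrest (2.87%) and 364 lower (2.77%). Scaled to fragments outside the mitochondrial genome, the split was 302 higher and 435 lower. The groups did not overlap for 419 genes (3.19%). Of all genes tested, 49.6% had the lower mean in Arrest, and the median difference was 0.00 with an SD across genes of 0.22. These shares are the background for every count below.

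On the log2(FPKM + 1) scale, the difference was bounded for most genes. The 95% interval of the difference lay within 1 log2 unit of 0 for 12288 genes (93.4%), and in the median it reached 0.34 to either side. This scale compresses the differences of low genes, so a narrow interval there does not bound the ratio of their levels. On the same scale, 39 genes had an estimate of at least 1 in size, 29 above and 10 below 0. The profiles as a whole gave the same picture. The mean distance between an Arrest and an Adr library was 50.2 log2 units over all genes, against 48.3 among Arrest libraries and 51.6 among Adr libraries. The excess of between over within, 0.191, was not larger than other assignments of the 8 libraries gave (exact two-sided permutation p = 0.8). Voom on fragments recovered from the FPKM values also called 0 genes, with 740 at an unadjusted p of at most 0.05. A model of all 37 libraries, which borrows its error from every group, called 1 gene, Chuk (limma adjusted p = 0.0379). The study's methods leave out an Adr library of poor quality at 3 days without naming it. Adr replicate 3 of that day, the library with the lowest share on the 13 mitochondrial protein genes (8.88% against 19.5% to 29.3% in the others), is kept here. The same model without it also called Chuk (limma adjusted p = 0.0417), and 401 genes stood at an unadjusted p of at most 0.05.

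Resident macrophage genes were the list that stood furthest from this background by count. All 14 of its members had the lower mean in Arrest, against 49.6% of all genes, with a median difference of -0.37. At an unadjusted p of at most 0.05 stood 8 of 14, against 2.77% of all genes in that direction, and for 4 of 14 the groups did not overlap, against 3.19%. None of the 14 passed the adjusted test, and no member is shared with another list. These cells live in the healthy heart, take up debris and spent mitochondria of the muscle cells, and are known by scavenger and complement genes.

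The fractalkine receptor Cx3cr1 (ENSMUSG00000052336, chromosome 9) had 3.58, 2.14, 2.56 and 2.91 FPKM in Adr replicates 1 to 4 and 0.933, 1.01, 1.67 and 1.37 FPKM in Arrest. Every Arrest library was below every Adr library, and the difference was -0.75 (95% interval -1.11 to -0.40, limma adjusted p = 0.76). Adgre1, which encodes the macrophage surface protein F4/80, had 12.9, 9.99, 9.44 and 6.88 FPKM in Adr and 5.19, 5.86, 6.55 and 6.38 FPKM in Arrest. The groups did not overlap there either, by a margin of less than 1 FPKM, with a difference of -0.60 (limma adjusted p = 0.869). Cbr2, a carbonyl reductase used as a marker of tissue macrophages, had 41.6, 34.7, 39.1 and 34.3 FPKM in Adr and 23.5, 27, 32.5 and 23.7 FPKM in Arrest. Its difference was -0.48, and Arrest replicate 3 came close to the lowest Adr library. The mannose receptor Mrc1 had 10.5, 9.05, 8.22 and 8.21 FPKM in Adr and 7.51, 7.4, 6.94 and 6.69 FPKM in Arrest, a small difference of -0.29 on a narrow spread.

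The other 4 of these 8 genes overlapped between the groups. The complement subunits C1qb and C1qc, which macrophages secrete, had differences of -0.41 and -0.46, and C1qc ran from 35.7 to 56.2 FPKM in Adr and from 25.5 to 36.8 FPKM in Arrest. The folate receptor Folr2 differed by -0.50, with Arrest replicate 3 at 4.68 FPKM and the other 3 Arrest libraries between 2.66 and 2.72 FPKM. The growth factor receptor Csf1r, on which these cells depend, differed by -0.39. Members with the smallest differences were Lyve1 (-0.05), Cd163 (-0.16) and Retnla (-0.18). Lyve1 had 12.4 to 20.6 FPKM in Adr and 11.9 to 19 FPKM in Arrest, so the members did not share 1 size of difference.

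**Figure D1:**
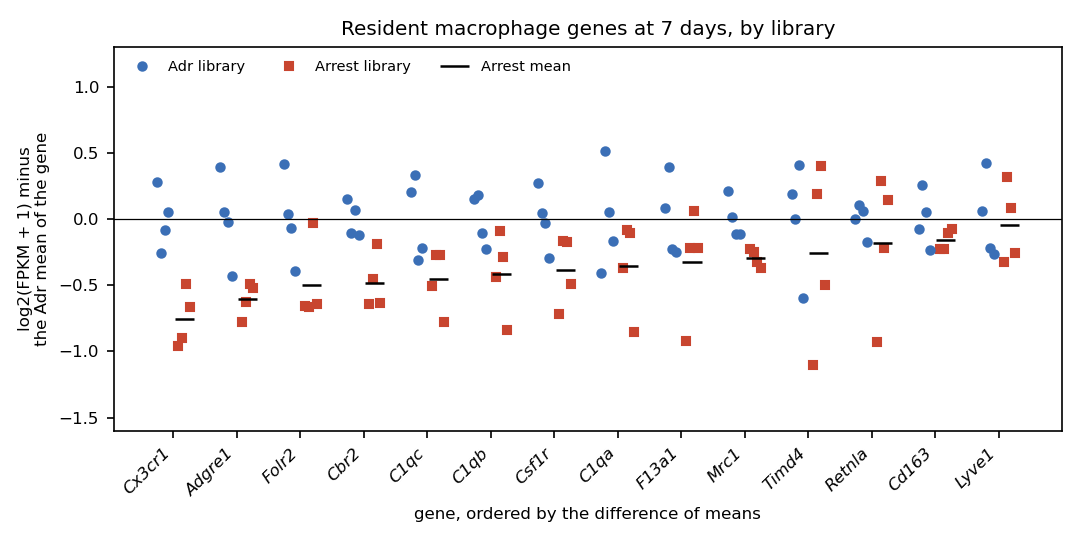
Each of the 14 resident macrophage genes on the x axis, ordered by difference, with its log2(FPKM + 1) in each Adr (circle) and Arrest (square) library minus the mean of the Adr libraries on the y axis and the Arrest mean as a bar. All 14 bars lie below 0, from -0.75 for Cx3cr1 to -0.05 for Lyve1, and the groups are fully apart for Cx3cr1, Adgre1, Cbr2 and Mrc1.

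The mean over the 14 genes, set to 0 over the 8 libraries, was 0.32, 0.33, 0.15 and -0.06 in Adr replicates 1 to 4 and -0.44, -0.04, 0.03 and -0.29 in Arrest. The groups overlapped, since Adr replicate 4 lay below 2 Arrest libraries. Naïve libraries ran from -0.06 to 0.51 with a median of -0.02. Compared with the Naïve mean, 11 of the 14 genes were higher in Adr (median 0.13) and 1 of 14 was higher in Arrest (median -0.22). These 2 comparisons share the Naïve libraries. The count of 8 genes rested on few libraries. It was 3 without Arrest replicate 4, 4 without Adr replicate 1 or 2 and 5 without Arrest replicate 1, and it was 0 in the model of all 37 libraries and 2 in that model without Adr replicate 3 of 3 days, while the median stayed between -0.47 and -0.32 in all 23 alternatives.

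The stretches of DNA before 3 of the 4 genes without overlap are shown because these genes had lower levels together, a choice made after their values were seen. Each is 250 bases up to the gene start, from RefSeq on GRCm38.p6, written 5′ to 3′ on the gene's strand. Capitals mark matches to GAGGAA on either strand (TTCCTC on the other), the core of the motif of PU.1, a factor of the macrophage lineage. The table holds 10 of the 14 macrophage genes (all but Adgre1, C1qa, Csf1r and Lyve1). These 10 genes have 12 such windows, since Folr2 and F13a1 have a pair each, and matches were found in 6 of the 12 and in 23.3% of all 32851 windows of that length. Mrc1 (chr2:14229164-14229413, plus strand) held 3 matches, Cbr2 (chr11:120732022-120732271, minus strand) 1 match and Cx3cr1 (chr9:120068297-120068546, minus strand) 0.
Mrc1: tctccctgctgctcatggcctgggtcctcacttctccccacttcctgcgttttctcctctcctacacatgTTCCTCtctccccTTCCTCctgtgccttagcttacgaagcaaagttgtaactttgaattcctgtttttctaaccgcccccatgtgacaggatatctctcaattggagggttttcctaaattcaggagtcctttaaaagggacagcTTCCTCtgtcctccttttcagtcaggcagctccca
Cbr2: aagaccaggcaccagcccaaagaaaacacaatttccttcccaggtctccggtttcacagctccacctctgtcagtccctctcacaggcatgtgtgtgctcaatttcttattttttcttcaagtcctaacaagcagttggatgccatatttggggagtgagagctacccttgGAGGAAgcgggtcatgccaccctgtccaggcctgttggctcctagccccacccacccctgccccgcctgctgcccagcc
Cx3cr1: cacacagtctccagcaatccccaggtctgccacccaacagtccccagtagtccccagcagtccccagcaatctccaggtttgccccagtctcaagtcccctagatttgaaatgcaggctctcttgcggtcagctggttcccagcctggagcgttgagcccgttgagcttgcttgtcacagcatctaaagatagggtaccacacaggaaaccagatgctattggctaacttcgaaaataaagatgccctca

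Genes of antigen presentation had the lower mean in Arrest, and those tested of recruited leukocytes had means under 3 FPKM in both groups. All 6 tested MHC class II genes, which present peptides to T cells, had the lower mean in Arrest, with a median of -0.48, and 1 of 6 stood at an unadjusted p of at most 0.05. That gene, the peptide loading subunit H2-DMb1, had 8.35, 7.44, 4.39 and 5.94 FPKM in Adr and 5.66, 2.48, 4.66 and 2.9 FPKM in Arrest, and the groups overlapped. Adr replicates 1 and 2 were the 2 highest libraries for this list, with means of 0.56 and 0.60. The 95% interval stayed within 1 log2 unit of 0 for 1 of the 6 genes, so larger differences were within the error. With 1 library left out, the median ran from -0.68 without Arrest replicate 1, where the count was 5, to -0.28 without Arrest replicate 3, and the count was 0 without Adr replicate 1, Adr replicate 2 or Arrest replicate 4 and 2 without Adr replicate 3. The count was also 5 with sex as a covariate (median -0.64), with the number in the sample description as a covariate (-0.54) and with the replicate block, 3 by voom, 2 when scaled to fragments outside the mitochondrial genome and 0 in both models of all groups.

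Of 4 tested T, B and natural killer cell genes, all had the lower mean in Arrest (median -0.17). The B cell receptor component Cd79b had 0.678, 0.981, 1.6 and 0.832 FPKM in Adr and 0.619, 0.133, 0 and 0.549 FPKM in Arrest, near the detection limit (-0.62). Inflammatory monocyte genes had a median of -0.16 over 5 tested, and their receptor Ccr2 stood at 0.92 FPKM in Adr and 0.78 FPKM in Arrest. Of these 5, 1 stood at an unadjusted p of at most 0.05, lower in Arrest, against 2.77% of all genes in that direction. That count was 0 when any 1 Adr library was left out. Neutrophil genes gave a median of -0.10 over 4 tested of 12 listed, and Ly6g was at 0 in all 8 libraries. The acute phase genes, which injury and cytokines raise, were centred near 0. Their median was 0.04 over 16 tested, with 0 at an unadjusted p of at most 0.05. Serpina3n, an inhibitor of proteases, had 3.04, 2.25, 5.97 and 7.05 FPKM in Adr and 5.36, 12.7, 8.02 and 3.72 FPKM in Arrest, a difference of 0.58 with an interval from -0.22 to 1.39. The interferon response had a median of 0.04 over 25 genes, the complement genes 0.02 over 12, and chemokines and their receptors -0.16 over 20, with 0 of those 20 at an unadjusted p of at most 0.05.

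Fibroblast and matrix genes were lower on the whole in Arrest, by less than the macrophage genes. All 12 fibroblast genes (median -0.24), all 16 tested collagens (median -0.22) and 21 of 24 matricellular and myofibroblast genes (median -0.29) had the lower mean in Arrest. At an unadjusted p of at most 0.05 stood 1, 2 and 4 of them, respectively, against 2.77% of all genes in that direction. Thrombospondin 1 (Thbs1), which activates latent TGF-β, had 14.1, 9.65, 9.03 and 8.23 FPKM in Adr and 5.74, 8.51, 3.69 and 6.08 FPKM in Arrest, a difference of -0.70. Only Arrest replicate 2 reached into the Adr range. Tgfb1 itself differed by -0.37, the collagen chaperone Sparc by -0.33 and Meox1, a transcription factor of activated fibroblasts, by -0.56.

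Decorin (Dcn), a small proteoglycan of resting fibroblasts, had 251, 159, 187 and 154 FPKM in Adr and 119, 167, 133 and 146 FPKM in Arrest (-0.39), with Arrest replicate 2 above 2 of the Adr libraries. Among collagens the vessel collagen Col15a1 had 22.1, 21.9, 18.4 and 16 FPKM in Adr and 15.2, 16.2, 12.8 and 15.2 FPKM in Arrest (-0.37), with Arrest replicate 2 just inside the Adr range, and Col6a2 differed by -0.28. The gelatinase Mmp2 differed by -0.54. Adr replicate 1 was the highest of the 8 libraries for fibroblasts (0.61), collagens (0.47) and matricellular genes (0.71). Periostin (Postn), a marker of activated fibroblasts, stood at 36.2 FPKM there and between 3.28 and 9.28 FPKM in the other 7 libraries. Without that library the medians were -0.11, -0.10 and -0.16, and 0, 1 and 2 genes of them stood at an unadjusted p of at most 0.05. Without Arrest replicate 2 the medians were -0.38, -0.33 and -0.36 with 3, 5 and 7 genes. Leaving out 1 of the other 6 libraries gave 0 to 2, 1 to 3 and 1 to 6 genes, the most without Adr replicate 4 in each list and the fewest of the matricellular list without Arrest replicate 4. Naïve libraries lay between -0.21 and -0.08 for the fibroblast list, inside the range of Arrest (-0.38 to 0.27) and overlapping that of Adr (-0.20 to 0.61).

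**Figure D2:**
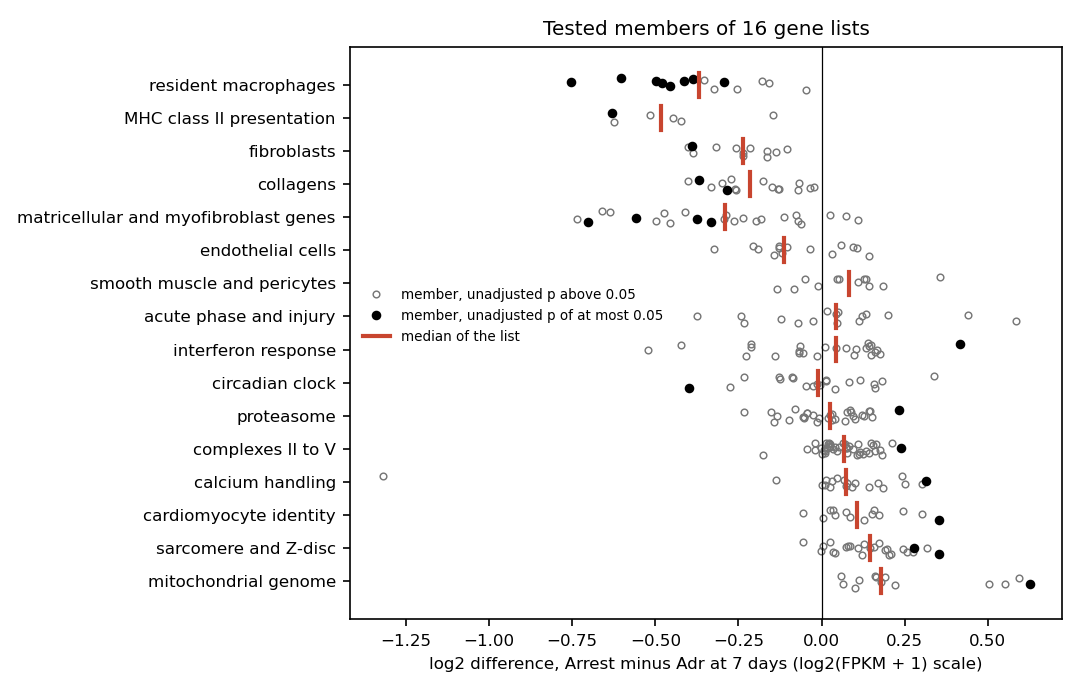
Differences (Arrest minus Adr at 7 days, log2(FPKM + 1) scale) of the tested members of 16 gene lists, 1 point per gene, filled at an unadjusted p of at most 0.05, with the median as a bar. The medians of the macrophage, MHC class II and matrix lists lie left of 0 and those of the muscle and mitochondrial lists slightly right of it, with Sln of the calcium list at -1.32, while the medians of the acute phase, interferon, clock and proteasome lists are near 0.

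Genes of the muscle cell had slightly higher means in Arrest. Of 14 cardiomyocyte genes 13 did (median 0.11), of 25 sarcomere and Z-disc genes 23 (median 0.14), and of 20 calcium handling genes 18 (median 0.07). Of the 14 cardiomyocyte genes, 13 are also members of the other lists. At an unadjusted p of at most 0.05 stood 1, 2 and 1 of them, against 2.87% of all genes in that direction. After quantile normalization the medians were 0.04, 0.09 and 0.05. With 1 library left out they reached 0.18, 0.20 and 0.13 without Adr replicate 4, with 2, 4 and 4 genes past that unadjusted p, and were lowest at 0.04 without Adr replicate 1, 0.09 without Arrest replicate 1 and 0.03 without Arrest replicate 3, respectively. Titin (Ttn), the spring of the sarcomere, had 15.3, 19.7, 22.5 and 24.9 FPKM in Adr and 28.1, 23, 29.5 and 24.8 FPKM in Arrest (0.35), with overlapping groups and a Naïve mean of 27.8 FPKM. The sodium-calcium exchanger Slc8a1, which removes calcium in diastole, had 10.9, 13.2, 12.3 and 12.2 FPKM in Adr and 14.7, 13.5, 16.9 and 16.4 FPKM in Arrest (0.31), without overlap. The titin cap Tcap differed by 0.28 and the intercalated disc protein Ctnna3 by 0.29.

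Markers of wall stress were centred near 0. The natriuretic peptide Nppb had 429, 395, 346 and 376 FPKM in Adr and 498, 368, 359 and 336 FPKM in Arrest, with a difference of -0.00 and an interval from -0.30 to 0.30. The fetal myosin Myh7 differed by 0.32 (interval -0.17 to 0.80), and the whole list of 16 tested fetal and stress genes had a median of 0.01 with 0 at an unadjusted p of at most 0.05. Sarcolipin (Sln), an atrial calcium pump inhibitor, gave the widest difference of the calcium list, -1.32, with an interval from -3.81 to 1.17. It was at 0 in 3 Arrest libraries and 19.1 FPKM in Arrest replicate 2, the library highest in Myl7.

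Mitochondrial transcripts stood slightly higher in Arrest, within the spread of the libraries. All 13 protein genes of the mitochondrial genome did (median 0.18), with 1 at an unadjusted p of at most 0.05. That gene, mt-Nd4l of complex I, had 105, 111, 123 and 177 FPKM in Adr and 200, 129, 177 and 319 FPKM in Arrest (0.63). Its highest value was in Arrest replicate 4, the library with the most fragments. Nuclear subunits of complex I had a median of 0.06 over 37 genes, and those of complexes II to V a median of 0.07 over 42, which was -0.01 after quantile normalization. That normalization gave 0.09 for the mitochondrial genome and 0.02 for complex I. With 1 library left out, the median of the mitochondrial genome ran from 0.07 without Arrest replicate 3 to 0.32 without Arrest replicate 2, with up to 3 genes past that p (without Adr replicate 4). The medians of the nuclear lists were lowest without Arrest replicate 3 (0.00 and 0.02) and highest without Arrest replicate 4 (0.11 in both). Ndufa12, an accessory subunit of complex I, had 68.2, 52.8, 77.3 and 57.9 FPKM in Adr and 111, 110, 58.4 and 113 FPKM in Arrest (0.57). The groups overlapped there through Arrest replicate 3 alone. Fatty acid oxidation genes had a median of 0.10 over 31, with the coactivator Ppargc1a at 0.34, and glycolytic genes 0.06 over 27, with the glucose transporter Slc2a1 at 0.41. Of the fatty acid list 1 gene stood at an unadjusted p of at most 0.05, but 6 did without Arrest replicate 2 and 4 without Adr replicate 2. Without Adr replicate 1 both medians were 0.02, and they were highest at 0.15 for the fatty acid list without Adr replicate 4 and at 0.10 for glycolysis without Arrest replicate 2.

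The genes of lowest p were no family. Chuk (ENSMUSG00000025199, chromosome 19), the catalytic subunit IKKα of the kinase that releases NF-κB, was known from earlier results of these data. It had 3.65, 3.97, 3.96 and 4.97 FPKM in Adr and 7.42, 5.87, 7.26 and 7.34 FPKM in Arrest, with no overlap. The difference was 0.64 (interval 0.37 to 0.90), and the Naïve mean of 6.26 ± 0.879 FPKM (SD, n = 5) lay within the range of Arrest. Fitted on these 8 libraries it did not pass the adjusted test (limma adjusted p = 0.74). Across 23 alternatives the difference ran from 0.59 to 0.76 and the adjusted p from 0.0379 to 0.999.

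The partners of Chuk had differences whose intervals include 0. The catalytic subunit Ikbkb had 1.41, 1.68, 1.22 and 1.41 FPKM in Adr and 1.82, 1.85, 1.08 and 1.42 FPKM in Arrest (0.06, interval -0.27 to 0.38). The regulatory subunit Ikbkg had 4.09, 4.15, 4.14 and 4.75 FPKM in Adr and 4.2, 4.15, 5.91 and 5.37 FPKM in Arrest (0.15, interval -0.13 to 0.43). Of 13 NF-κB subunits and inhibitors 8 had the lower mean in Arrest (median -0.05), among them Rela, the transactivating subunit, at -0.24. Of 19 upstream kinases and adaptors 12 did (median -0.03), with the adaptor Traf5 at -0.39, and of 5 receptors of the non-canonical arm 3 did (median -0.06).

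Mir208b (ENSMUSG00000077928, chromosome 14) had the largest difference of the genes named by the rule. It is a gene of 77 bases inside an intron of the fetal myosin gene Myh7, and its mature product is one of the muscle miRNAs that tune myosin expression. It had 10.1, 7.93, 9.3 and 24.1 FPKM in Adr and 85.3, 59.2, 28.8 and 30.2 FPKM in Arrest, without overlap. These rested on 12, 10, 10 and 28 fragments in Adr and on 89, 72, 30 and 68 fragments in Arrest. The difference was 1.89 (interval 1.01 to 2.77, limma adjusted p = 0.74), and the 5 Naïve libraries ran from 0 to 39.6 FPKM, across the gap between the groups. At 0.5, 1 and 3 days the difference of Mir208b had the other sign, at -0.35, -0.39 and -1.13. Its means on those days were 58.8, 44.1 and 18.5 FPKM in Adr and 43.7, 36.6 and 23.5 FPKM in Arrest. The values at 3 days are with Adr replicate 3 of that day kept. Long fragments over so short a gene are not the mature miRNA, and whether they come from the precursor or from unspliced Myh7 RNA cannot be told apart.

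The mature sequences are shown because Mir208b shares its seed with Mir208a, its neighbour in the adult myosin gene Myh6. Capitals mark bases 2 to 8, the seed, in sequences from RefSeq on GRCm38.p6 (minus strand, chr14:54975710-54975731 for miR-208b-3p and chr14:54949072-54949093 for miR-208a-3p).
mmu-miR-208b-3p: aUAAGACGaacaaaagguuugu
mmu-miR-208a-3p: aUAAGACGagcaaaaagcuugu
The 22 bases differ at 3 positions, none of them in the seed. Mir208a had 0 fragments in 7 of the 8 libraries and 3 in Arrest replicate 2. Myh7 had 12.5, 6.28, 5.19 and 7.75 FPKM in Adr and 11.6, 8.71, 8.87 and 9.59 FPKM in Arrest, and Myh6 had a difference of 0.25 with an interval from -0.06 to 0.55. Adr replicate 1 was the highest library for Myh7 and among the 4 lowest for Mir208b.

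Other genes with higher means in Arrest were mostly low. The long noncoding RNA Neat1, the scaffold of nuclear paraspeckles, had 6.46, 8.54, 8.47 and 10.3 FPKM in Adr and 15.5, 12.9, 15.8 and 11.3 FPKM in Arrest (0.66, limma adjusted p = 0.869). The RNA phosphatase Dusp11 had 4.54, 4.42, 4.32 and 4.53 FPKM in Adr and 6.61, 6.84, 5.93 and 6.53 FPKM in Arrest (0.45, limma adjusted p = 0.74). Both were without overlap, and Dusp11 had an SD of 0.102 FPKM in Adr. The DNA glycosylase Neil1 (0.80), Ccdc191 (0.80), Mnd1 (0.87) and Fam89a (0.82) also had groups without overlap, all with means below 4 FPKM. For Mnd1 and Fam89a this was a condition of being named. Zfp969, a zinc finger gene, differed by 1.41, but Adr replicate 3 (0.937 FPKM) lay above Arrest replicate 4 (0.758 FPKM). Zinc finger genes have close copies, so its count is uncertain.

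**Figure D3:**
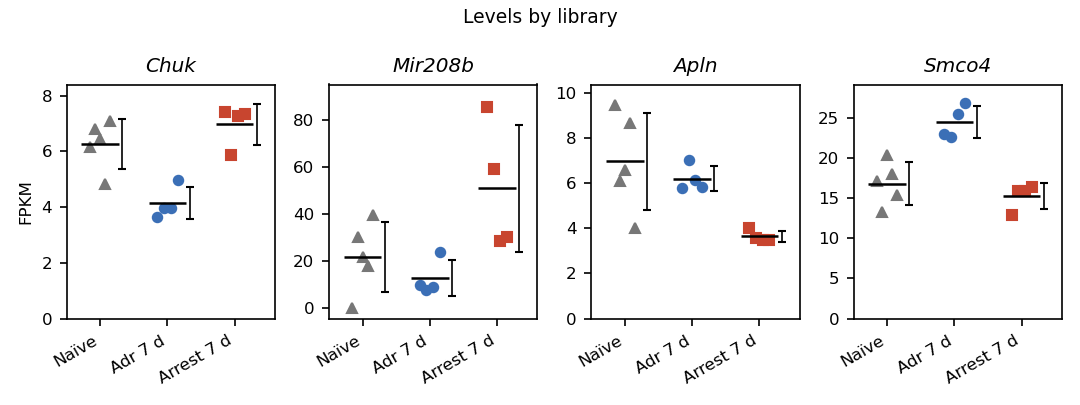
FPKM of Chuk, Mir208b, Apln and Smco4 in each Naïve library (triangle) and in each 7-day Adr (circle) and Arrest (square) library, with the mean as a bar and the SD as a whisker. Arrest and Adr do not overlap for any of the 4, and the Naïve mean lies nearer Arrest for Chuk and Smco4 and nearer Adr for Apln and Mir208b.

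Smco4 and Apln had the lowest p-values of the genes named by the rule. Smco4 (ENSMUSG00000058173, chromosome 9), a small membrane protein gene, had 22.9, 22.6, 25.5 and 26.8 FPKM in Adr and 12.8, 15.9, 15.9 and 16.4 FPKM in Arrest (-0.65, limma adjusted p = 0.51). Its Naïve mean was 16.8 ± 2.69 FPKM (SD, n = 5), so the Adr libraries stood apart from both others. Apln (ENSMUSG00000037010, chromosome X), which encodes apelin, a peptide of endothelial cells with inotropic action, had 5.81, 7.02, 6.16 and 5.84 FPKM in Adr. In Arrest it had 4.01, 3.6, 3.47 and 3.5 FPKM, a difference of -0.63 (interval -0.86 to -0.40, limma adjusted p = 0.51). Naïve libraries ran from 4.04 to 9.5 FPKM, all above the Arrest libraries.

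Apln had the lower mean in Arrest at the earlier times too, by -0.76 at 0.5 days, -0.77 at 1 day and -0.32 at 3 days (-0.21 without Adr replicate 3 of 3 days). Each of these comparisons has its own libraries. Endothelial cell genes as a list had a median of -0.11 over 14, with 0 at an unadjusted p of at most 0.05. Of the other genes named by the rule, Cotl1, an actin-binding protein of leukocytes, had 20.6, 13.6, 17.5 and 15.4 FPKM in Adr and 11, 10.9, 10.4 and 9.07 FPKM in Arrest (-0.63). Tlr2, the receptor for bacterial lipoproteins, had 5.54, 2.77, 3.54 and 3.45 FPKM in Adr and 1.13, 1.89, 2.55 and 1.7 FPKM in Arrest (-0.77). The groups did not overlap for either. Pea15a, an adaptor of ERK signalling, had a difference of -0.38 at a mean of 45 ± 3.06 FPKM in Adr and 34.2 ± 1.46 FPKM in Arrest (SD, n = 4). Endov (-0.69), Bend5 (-0.72), Lmo1 (-0.86) and Meig1 (-0.72) were without overlap as well, with means under 5 FPKM. For Tlr2, Lmo1 and Meig1 this was a condition of being named. The lowest Adr library of Lmo1 (3.382 FPKM) was barely above its highest Arrest library (3.380 FPKM). With 1 library left out, the unadjusted p of Lmo1 reached 0.0726 (limma).

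**Figure D4:**
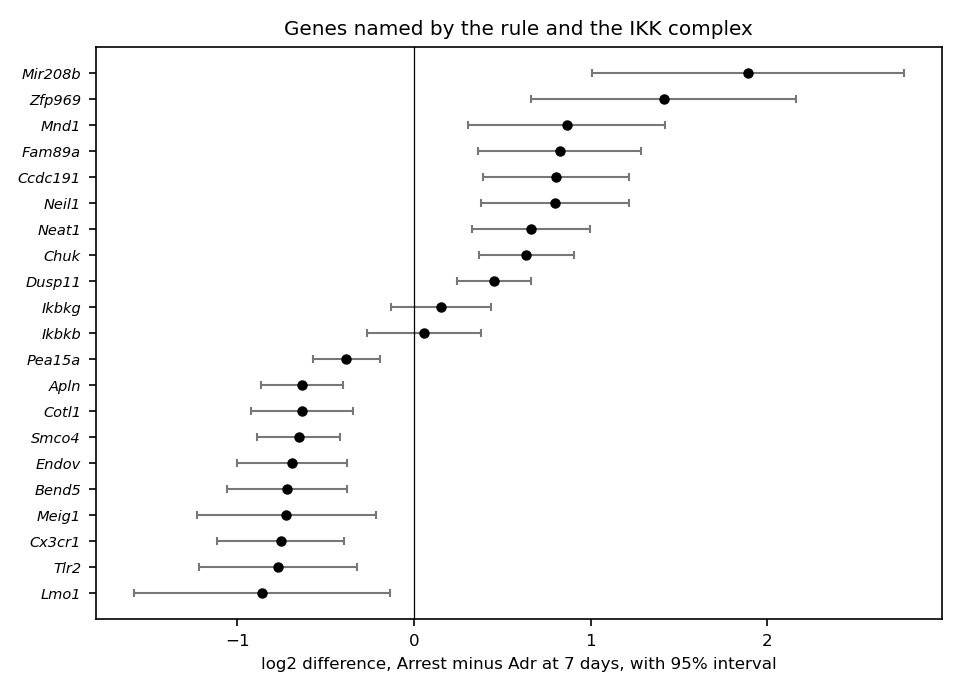
Difference (Arrest minus Adr at 7 days, log2 scale) with its 95% interval for genes named by the rule and for the 3 subunits of the IKK complex. The genes named by the rule have intervals clear of 0 because they were chosen by p or size, and those of Ikbkb and Ikbkg include 0.

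Stress, hormone and growth lists gave scattered single genes. Of the 53 lists with a tested gene, 33 had a median within 0.1 of 0, 5 had one below -0.2, and 2 had one above 0.2, the fat cell list and the single tested sex-linked gene. The fat cell median, 0.27 over 5 genes, was -0.59 without Arrest replicate 2, -0.10 without Adr replicate 2 and -0.06 without Adr replicate 4. Leaving out any other library gave 0.36 to 0.66. The circadian clock (median -0.01 over 20 genes), the proteasome (0.03 over 31), the p53 targets (0.06 over 18) and the ATF4 response (0.00 over 17) were centred near 0. So were the adrenergic receptors with their signalling chain, which both groups had met as adrenaline targets (-0.02 over 24). The β1 receptor Adrb1 differed by 0.12 (interval -0.20 to 0.44). The transferrin receptor Tfrc, which brings iron into the cell, had 10.8, 12.7, 19.3 and 20.7 FPKM in Adr and 8.91, 7.39, 11.1 and 6.63 FPKM in Arrest (-0.80). Arrest replicate 3 alone reached the Adr range, and the iron list as a whole had a median of 0.01 over 13. The mitophagy receptor Bnip3 (0.49), the heat shock protein Hsph1 (0.38), the cardiac growth factor Fgf16 (0.57) and the glucocorticoid target Zbtb16 (0.51) had higher means in Arrest. Gadd45b (-0.55) and the immediate early gene Nr4a3 (-0.67) had lower ones. Of these 7 genes the groups were apart for Hsph1 only, at 5.26 to 7.31 FPKM in Adr and 7.75 to 9.57 FPKM in Arrest.

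The difference at 7 days was then set against those of the earlier days in a model of the 32 Adr and Arrest libraries. Of 16210 genes, 0 had a difference at 7 days that departed from that at 1 day (lowest limma adjusted p = 0.154, 615 or 3.79% at an unadjusted p of at most 0.05). Against 0.5 days 0 did as well (lowest limma adjusted p = 0.839, 479 genes or 2.95%). Without Adr replicate 3 of 3 days the counts were 0 too, with lowest adjusted p of 0.158 and 0.839. The lowest p against 1 day was that of Chuk, whose difference was -0.19 at 1 day and 0.64 at 7 days. Acute phase genes, at a median of 0.04 at 7 days, had 0.75 at 0.5 days, 0.43 at 1 day and 0.08 at 3 days (0.19 without Adr replicate 3 of 3 days). Nppb had differences of 0.72, 1.06 and 0.66 at 0.5, 1 and 3 days (0.73 without that library) and of -0.00 at 7 days.

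The macrophage list had medians of 0.03, -0.01 and -0.04 at 0.5, 1 and 3 days and -0.37 at 7 days. For 12 of its 14 genes the difference was lower at 7 days than at 1 day (median -0.34), yet 0 of 14 stood at an unadjusted p of at most 0.05 in the test of that departure, against 3.79% of all genes. Cx3cr1, not among those 12, had differences of 0.03, -0.84, -0.42 and -0.75 from 0.5 to 7 days. Its value at 3 days is with Adr replicate 3 of that day kept. MHC class II genes had medians of -0.57, -1.12, -0.77 and -0.48 from 0.5 to 7 days, with all 6 tested genes lower in Arrest at each time. Their median at 3 days was -0.56 without Adr replicate 3 of that day. Fibroblast genes had medians of -0.20, -0.24, -0.09 and -0.24 from 0.5 to 7 days, and collagens -0.41, -0.42, -0.13 and -0.22. Sarcomere genes had -0.09, 0.23, 0.45 and 0.14. The medians at 3 days rest on Adr replicate 3 of that day: without it they were 0.19 for macrophage, 0.02 for fibroblast, 0.33 for collagen and 0.02 for sarcomere genes.

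**Figure D5:**
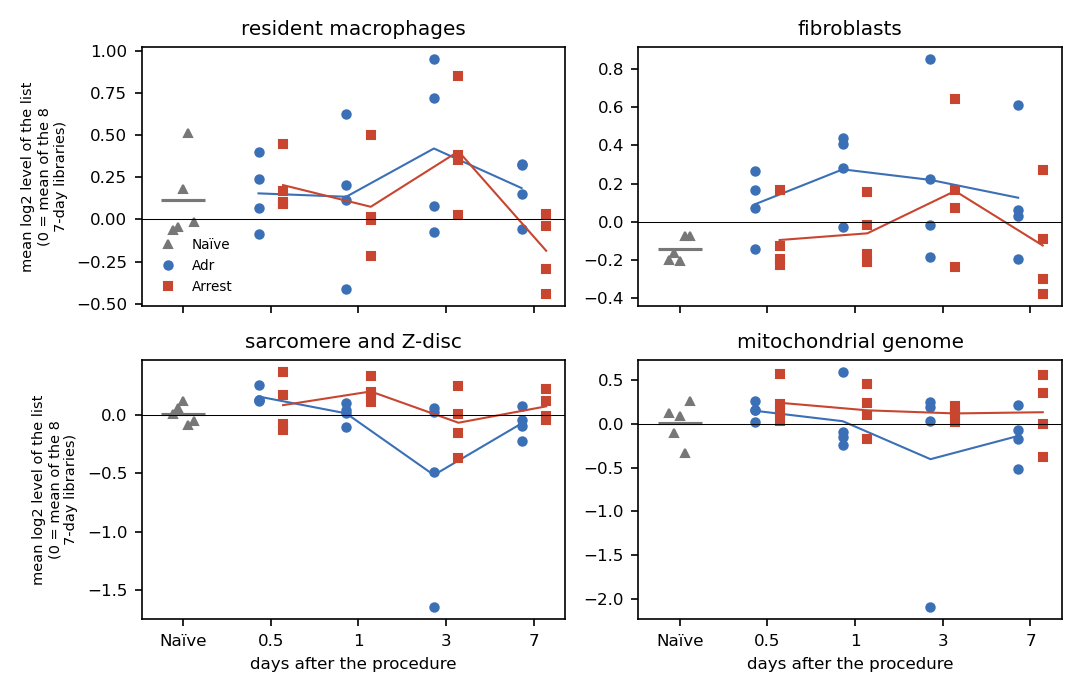
Mean log2 level of 4 gene lists in each library of the study, with the 7-day libraries set to a mean of 0, by days after the procedure; triangles are Naïve, circles Adr and squares Arrest libraries, and lines join group means. At 7 days the Arrest libraries of the macrophage list run from -0.44 to 0.03 and the Adr libraries from -0.06 to 0.33, and the groups overlap in all 4 panels.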

How the data were processed

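RNA of left ventricles was sequenced at Novogene and, per the study's methods, checked with FastQC and mapped with HISAT2; the authors tested differences with DESeq2. The genome build, annotation, counter and strand setting are not given in the sources used here, so overlapping or antisense genes and near-identical copies are uncertain. The authors deposited FPKM for 56748 genes, and no count table was used. All 659473 values above 0 in these libraries were whole multiples of 1 fragment (100%, tolerance 0.01), which gave the fragments per library. Counting error sets the precision of low genes.

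Libraries were grouped by their labels, and 0 columns of samples were unused. Genes that reached 0.5 FPKM in 4 or more of the 8 libraries were fitted on log2(FPKM + 1) with limma 3.58.1 (R 4.3.3, trend on the mean), and p-values were adjusted by Benjamini-Hochberg over all genes tested. Differences between days came from 1 model of 32 libraries. Exact permutation tests used scipy 1.17.1, with pandas 2.3.3 and numpy 2.4.6 (Python 3.11.15), and figures matplotlib 3.10.9. Scripts were tested on simulated data. Neither labels nor methods tie a library to an animal, so p-values measure the spread between these samples.

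Named genes were the 8 of lowest p and the 4 of largest difference without overlap in each direction (mean of at least 1 FPKM in 1 group, with an unadjusted p of at most 0.05 for the latter), passing over unnamed, predicted and sex-linked genes, together with the IKK complex and list members at an unadjusted p of at most 0.05. A few genes that the rule picked are not reported here. Other members named were chosen after their values were seen. The comparison, its genes and the lists were chosen with earlier results of these data known, Chuk among them. Of 23 alternatives, 1 of them chosen after seeing the data (all groups without Adr replicate 3 of 3 days), 8 left out 1 library each, and the others changed the pseudocount, filter, scaling, variance model, covariates or libraries fitted. Correlations of deviations between same-numbered libraries were -0.05, -0.07, 0.03 and 0.04, so numbers were not taken as pairs. Sequences come from RefSeq tables of GRCm38.p6.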

Additional observations from a re-analysis of the deposited data

Results flagged for a closer look

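In 10 of 84 groups of 4 libraries examined, 1 library lay far from the other 3, where chance sets about 1 in 20 apart. Arrest replicate 4 had 28.5 M fragments and the other Arrest libraries had 13.8 to 14.9 M. Of the genes higher in Arrest, Chuk was lowest in Arrest replicate 2, at 5.87 FPKM against 7.26 to 7.42 FPKM, and Mir208b was highest in Adr replicate 4, at 24.1 FPKM against 7.93 to 10.1 FPKM. Ikbkg stood at 4.75 FPKM in that same library and at 4.09 to 4.15 FPKM in the other Adr libraries. Meig1, a gene lower in Arrest, also stood out in Adr replicate 4, at 3.84 FPKM against 1.94 to 2.21 FPKM.

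Of the genes lower in Arrest, Smco4 stood at 12.8 FPKM in Arrest replicate 1 against 15.9 to 16.4 FPKM. Bend5 stood at 0.962 FPKM in Arrest replicate 2 against 1.79 to 1.83 FPKM, and Pea15a at 32.04 FPKM in Arrest replicate 4 against 34.8 to 35.1 FPKM. Lmo1 stood at 7.55 FPKM in Adr replicate 1 against 3.38 to 4.06 FPKM, and Folr2 at 4.68 FPKM in Arrest replicate 3 against 2.66 to 2.72 FPKM.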

How the results depend on the processing

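The count of 0 genes past the adjusted p held in 21 of 23 alternatives of the 7-day comparison (limma or voom), and was 1 (Chuk) in the model of all 37 libraries, where 299 genes stood at an unadjusted p of at most 0.05. It was also 1 (Chuk, with 401 genes at that p) in that model without Adr replicate 3 of 3 days. Without a filter that count was 1070 of 25714 genes, and leaving out 1 library each gave 559 to 853. With the replicate block it was 696, and 0 passed the adjusted test. For the difference between 1 and 7 days the count was 1 with library quality weights and 0 to 2 when 1 library was left out: 2 without Arrest replicate 1 of 1 day (Chuk and ENSMUSG00000120062) and 2 without Arrest replicate 3 of 1 day (Gm24313 and Gm29819). Between 0.5 and 7 days it was 0 to 1, with 1 without Arrest replicate 3 or 4 of 0.5 days. The excess distance between groups turned negative without Adr replicate 1 (-0.0236) or Arrest replicate 1 (-0.798), 3 (-0.653) or 4 (-0.0753), with a highest value of 1.18. When 1 library was left out, the difference in fragments ran from -0.117 M to 4.81 M and that in the correlation with gene length from -0.0320 to 0.0692, with both lowest values without Arrest replicate 4. The difference in genes above 0 ran from 764 without Arrest replicate 4 to 2103 without Arrest replicate 3 (exact permutation p = 0.0286, the lowest any setting gave). Ikbkb turned to -0.003275 with sex as a covariate and -0.002841 without Arrest replicate 2, and reached 0.15 without Arrest replicate 3. Over all lists and alternatives, 328 counts moved by over 1.5 times and 891 did not, and 35 medians moved beyond the spread between replicates and 1184 did not. The cause of these changes was not tested. With 4 libraries a group, an interval that in the median reaches 0.34 to either side limits what could be detected.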
